A study of Homo sapiens with 4 samples.

Results

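The cathepsin protease genes were followed in the breast cancer line MDA-MB-468, as the wild-type line MDA-MB-468/WT and the resistant subline MDA-MB-468/R. The members were 10 genes taken by symbol, CTSA, CTSB, CTSC, CTSD, CTSH, CTSK, CTSL1, CTSL2, CTSS and CTSZ, out of 20809 targets in each library. CTSL1 and CTSL2 are the older symbols of CTSL and CTSV. MDA-MB-468 is a basal-type triple-negative breast cancer (TNBC) cell line. MDA-MB-468/R is 1 drug-resistant subline of it, selected with adriamycin (doxorubicin), cytoxan (cyclophosphamide) and taxotere (docetaxel) at rising doses for 6 months and then left to recover, and MDA-MB-468/WT is the untreated wild-type line, grown in the same medium. A protocol label of MDA-MB-468/WT names the same drugs, whereas its treatment label reads none, and the latter was used. The groups are written R and WT from here on. Each group had 2 libraries, made from total RNA with a kit that amplifies a single short piece of each gene.

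Cathepsins are proteases that do most of their work in the acidic lumen of the lysosome, where they cut up proteins delivered by endocytosis and autophagy. They are made as inactive precursors, carried to the lysosome largely by mannose 6-phosphate receptors, and matured by cutting. In breast tumors several of them, above all cathepsin B and cathepsin D, are also secreted and are known for cutting matrix proteins outside the cell. Of the 10 members, 8 encode papain-type cysteine proteases, CTSD encodes an aspartic protease and CTSA a serine carboxypeptidase. The cysteine proteases are held in check by cystatins.

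The libraries held 6842632 to 7981891 reads. The deposited values are log2 of the reads of a gene per 1000000 reads of its library (RPM) plus 1, and a floor of 3 reads corresponded to 0.376 to 0.438 RPM. The log2 values were compared with limma in 12118 genes, those with 10 reads or more in 2 or more libraries, and a gene was called lower or higher at a Benjamini-Hochberg adjusted p of at most 0.05. A called gene with a change of 2.5-fold or more was counted as differentially expressed (DEG). Between replicates, log2 values differed with an SD of 0.355 in R and 0.210 in WT. No source used here states that replicates came from separate cultures, so p-values reflect only the spread among these libraries, which may be technical. Among markers of the line, EGFR was at 4770 to 5712 RPM, KRT19 at 2418 to 2855 RPM and EPCAM at 599 to 786 RPM, whereas PGR had at most 0.404 RPM, ESR1 at most 3.23 RPM and ERBB2 6.89 to 13.4 RPM. Of 7 markers of the line, KRT5 was called lower (log2 fold change -0.765, adjusted p = 0.00210) and the other 6 did not pass, although all 7 had negative log2 fold changes. That call was lost without WT replicate 1 (adjusted p = 0.101) or WT replicate 2 (adjusted p = 0.130). KRT8 (adjusted p = 0.0214), KRT19 (0.0307) and EPCAM (0.0380) were called lower without R replicate 1, and EGFR (0.0283) and KRT19 (0.0436) without R replicate 2. Because amplicons differ in efficiency, RPM was compared between libraries and not as an order of the genes.

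Promoter sequences from RefSeq, build GRCh38.p14, were at hand for 7 of the 10 members (CTSA, CTSC, CTSD, CTSH, CTSL1, CTSL2 and CTSZ). The 250 bases before the transcription start were searched on both strands for CACGTG, the E-box core of the motif bound by TFEB and TFE3, which are known as regulators of lysosomal genes, and for TTTCNNTTT, the core of the interferon-stimulated response element. Each motif was searched separately, and overlapping matches were allowed. CACGTG was found in 2 members, with 2 sites in CTSA, the nearest 19 bases before the start, and 1 site in CTSD, 41 bases before the start. TTTCNNTTT was found in 0 of the 7. No promoter sequence was at hand for CTSB, CTSK and CTSS, so neither motif was searched in them. The bases right after the start of CTSZ were found in 0 of its 4 GENCODE transcripts, unlike those of the other members searched. The window of CTSZ is therefore less certain. Over all 35116 promoters of the table, 6.34% held CACGTG and 9.20% held TTTCNNTTT in this window. CTSA and CTSD, which hold the E-box core and do not encode cysteine proteases, are printed here beside CTSL1 and CTSL2, which encode the closest relatives among the members. The capitals mark CACGTG, and a match is a description of the letters only.
CTSD, chr11:1763928-1764177, minus strand: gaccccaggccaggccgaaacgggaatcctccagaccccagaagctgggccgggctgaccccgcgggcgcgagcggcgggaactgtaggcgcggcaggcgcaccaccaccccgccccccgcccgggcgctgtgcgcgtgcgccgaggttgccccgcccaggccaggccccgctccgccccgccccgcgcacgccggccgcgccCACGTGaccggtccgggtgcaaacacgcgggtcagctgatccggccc
CTSA, chr20:45891085-45891334, plus strand: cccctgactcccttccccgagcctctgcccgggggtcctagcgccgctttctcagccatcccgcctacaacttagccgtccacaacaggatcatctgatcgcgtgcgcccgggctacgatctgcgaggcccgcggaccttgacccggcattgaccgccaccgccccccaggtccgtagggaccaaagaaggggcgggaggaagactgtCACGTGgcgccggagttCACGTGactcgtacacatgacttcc
CTSL1, chr9:87725869-87726118, plus strand: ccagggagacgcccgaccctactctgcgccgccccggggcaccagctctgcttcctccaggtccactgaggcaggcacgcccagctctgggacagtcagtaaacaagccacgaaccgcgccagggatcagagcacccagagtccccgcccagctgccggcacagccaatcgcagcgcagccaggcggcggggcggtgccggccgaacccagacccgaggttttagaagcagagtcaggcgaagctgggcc
CTSL2, chr9:97039143-97039392, minus strand: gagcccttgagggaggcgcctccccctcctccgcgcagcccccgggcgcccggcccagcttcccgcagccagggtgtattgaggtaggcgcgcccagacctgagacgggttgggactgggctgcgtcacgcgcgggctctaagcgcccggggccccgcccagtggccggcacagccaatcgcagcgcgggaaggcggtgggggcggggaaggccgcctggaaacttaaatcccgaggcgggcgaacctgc

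Of the 10 members, all of which passed the filter on low values with at least 29 reads in each library, 4 were lower in R (CTSB, CTSS, CTSL2 and CTSZ), 1 was higher (CTSD) and 5 did not pass the test. Over all tested genes, 10.6% were called lower, 5.36% higher and 16.0% either way. CTSB and CTSS were downregulated DEGs, a call made in 2.45% of all tested genes, and no member was an upregulated DEG, a call made in 0.809%. Both R libraries lay below both WT libraries in 6 members and above them in 2, separations found in 32.2% and 26.1% of all tested genes, or 58.3% in either direction. The median log2 fold change of the members was -0.30, against -0.03 over all tested genes, whose quartiles were -0.295 and 0.195. The members did not move as one family, since their log2 fold changes spanned -2.05 to 0.485. Without WT replicate 1 or WT replicate 2, CTSB and CTSS were the 2 members still called, and none was called higher (0 and 1 at an unadjusted p under 0.05).

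**Figure D1:**
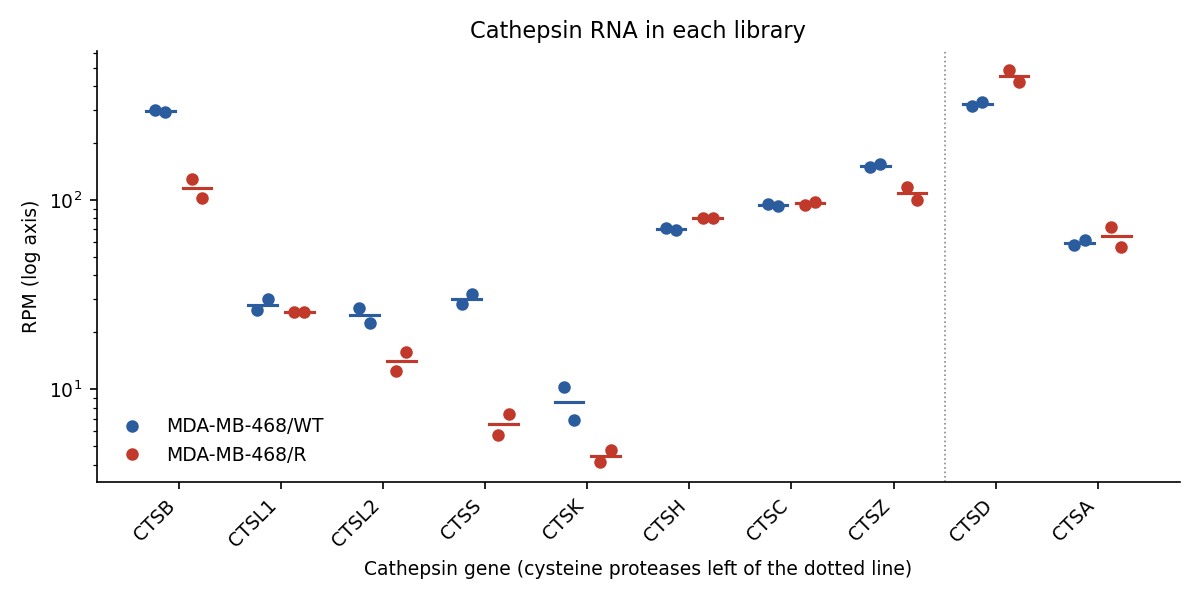
RPM on a log y axis for each cathepsin gene on the x axis, with WT in blue and R in red. Each point is 1 library and each horizontal line a group mean, and the red points lie well below the blue points for CTSS and CTSB and above them for CTSD.

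CTSS encodes cathepsin S, a cysteine protease that stays active at neutral pH and is known for trimming the invariant chain of MHC class II molecules in antigen-presenting cells. It had 28.2 and 31.9 RPM in WT and 5.73 and 7.40 RPM in R, from 193, 255, 40 and 54 reads. The exact 95% counting intervals reached down to 24.4 RPM in WT and up to 9.61 RPM in R, so the groups were apart by more than counting error, which is all that these intervals cover, as reads amplified by PCR are not independent molecules. In RPM, CTSS was 4.58-fold lower in R, and the log2 fold change was -2.05 (standard error, SE, 0.182, 95% interval -2.47 to -1.62, adjusted p = 5.72e-04). This was the largest change among the members. With any 1 library left out, the adjusted p stayed at 0.0250 or below.

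Most of the genes listed with CTSS for the class II route gave few reads in these epithelial cells. CD74, the invariant chain itself, had 1 read in 1 library of R and none elsewhere, and HLA-DRA had at most 7 reads. Of the 9 genes listed for this route, 3 passed the filter (IFI30, HLA-DMA and CIITA) and none of them passed the test. The interferon-induced thiol reductase gene IFI30 had 299 and 319 RPM in WT and 295 and 184 RPM in R (log2 fold change -0.405, adjusted p = 0.218). It was called lower without R replicate 1 (adjusted p = 0.0278), with the libraries of R far apart from each other. CTSS thus fell while the other genes of the route were either near 0 or did not pass.

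CTSB encodes cathepsin B, a cysteine protease that also trims peptides from their carboxyl end. It had 297 and 291 RPM in WT and 129 and 103 RPM in R. The mean of R was 39.4% of the WT mean, and the groups were 1.17 apart on the log2 scale where the replicates differed by at most 0.32. In RPM, CTSB was 2.54-fold lower (log2 fold change -1.35, SE 0.127, 95% interval -1.64 to -1.05, adjusted p = 7.39e-04). With any 1 library left out the adjusted p stayed at 0.0302 or below.

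CTSL1 and CTSL2, whose promoters are shown above, encode cathepsin L and cathepsin V, endopeptidases of closely related sequence. In the GENCODE transcripts their longest shared stretch was 40 bases, and CTSL1 shared up to 63 bases with the CTSL3 gene. Other members shared stretches of similar length, such as 37 bases for CTSB and CTSS. How far the aligner kept such stretches apart is not known. CTSL2 had 27.1 and 22.4 RPM in WT and 12.5 and 15.8 RPM in R. The groups did not overlap, and the log2 fold change was -0.77 (SE 0.181, 95% interval -1.19 to -0.35, adjusted p = 0.0284). This call was lost with any 1 library left out, at an adjusted p of 0.0964 without R replicate 1, 0.0579 without R replicate 2, 0.371 without WT replicate 1 and 0.191 without WT replicate 2. CTSL1 did not follow it, with 26.1 and 29.9 RPM in WT and 25.7 and 25.5 RPM in R. The log2 fold change of CTSL1 was -0.12 (95% interval -0.45 to 0.21, adjusted p = 0.619), so changes of either sign lay within the interval. The difference between the 2 paralogs was not tested.

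CTSZ encodes cathepsin Z, a carboxypeptidase that carries an integrin-binding motif in its propeptide. It had 149 and 154 RPM in WT and 118 and 99.4 RPM in R. The decrease was small but the replicates were close, with a log2 fold change of -0.485 (SE 0.118, 95% interval -0.76 to -0.21, adjusted p = 0.0322). The call was lost without WT replicate 1 (adjusted p = 0.366) and without WT replicate 2 (adjusted p = 0.415), and with the replicate block (adjusted p = 0.0585).

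CTSK encodes cathepsin K, the collagen-cutting protease of osteoclasts, and had the fewest reads of the members. It had 10.2 and 6.89 RPM in WT and 4.13 and 4.78 RPM in R, from 70, 55, 29 and 35 reads. Both libraries of R were lower, but the libraries of WT differed by 0.51 on the log2 scale and their counting intervals, down to 5.19 RPM, met those of R, up to 6.64 RPM. CTSK did not pass the test (log2 fold change -0.79, SE 0.231, 95% interval -1.33 to -0.25, adjusted p = 0.0595).

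CTSC and CTSH, which like CTSZ encode exopeptidases, did not pass the test. CTSC encodes dipeptidyl peptidase 1, which activates the granule serine proteases of leukocytes, and it had 94.7 and 92.7 RPM in WT and 94.0 and 98.0 RPM in R. Its log2 fold change was 0.035 with a 95% interval of -0.21 to 0.28, so a larger change in either direction lay outside the interval. CTSH encodes cathepsin H, an aminopeptidase. It had 71.5 and 69.5 RPM in WT and 80.6 RPM in each library of R. Both R libraries of CTSH were higher, and the log2 fold change was 0.19 (95% interval -0.06 to 0.44, adjusted p = 0.277).

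CTSD encodes cathepsin D, the main aspartic protease of the lysosome, which also cuts prosaposin. It had 314 and 330 RPM in WT and 483 and 421 RPM in R. It was the one member called higher, with a 1.40-fold increase in RPM (log2 fold change 0.485, SE 0.107, 95% interval 0.24 to 0.73, adjusted p = 0.0224). The call was lost without WT replicate 1 (adjusted p = 0.398) and without WT replicate 2 (adjusted p = 0.309). CTSA encodes the carboxypeptidase known as protective protein, which holds the sialidase NEU1 and the galactosidase GLB1 in a complex. It had 57.9 and 61.2 RPM in WT and 72.0 and 56.3 RPM in R, and these groups overlapped. The log2 fold change of CTSA was 0.095 (95% interval -0.25 to 0.44, adjusted p = 0.707). CTSA and CTSD share the E-box core shown above, and 1 of them passed the test.

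**Figure D2:**
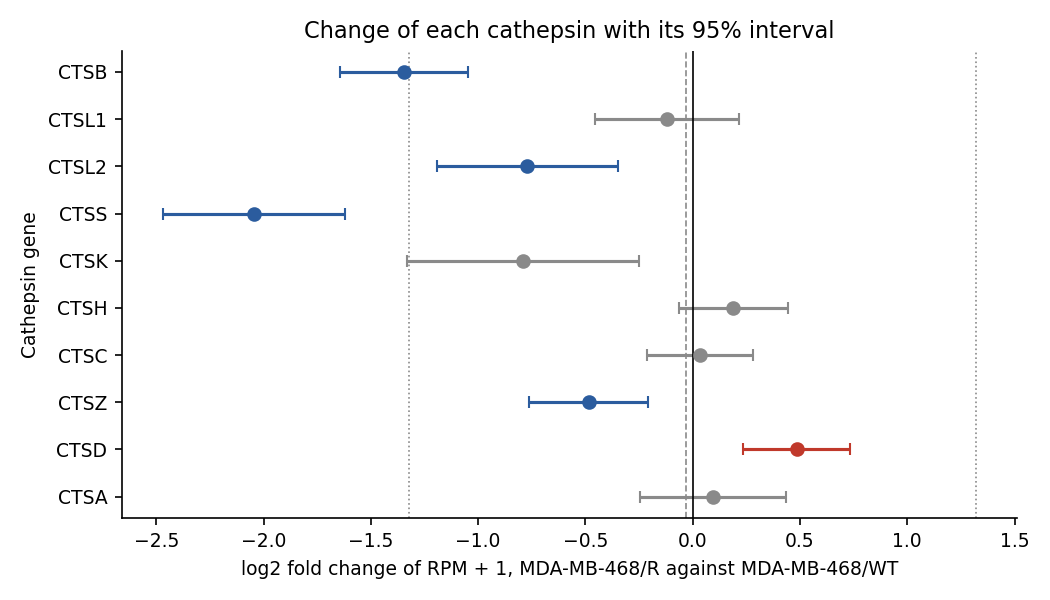
Log2 fold change of RPM + 1 on the x axis, R against WT, for the 10 cathepsin genes on the y axis. Points are limma estimates and bars are 95% intervals, blue for lower, red for higher and grey for not passed at an adjusted p of at most 0.05. The dashed line is the median of all tested genes and the dotted lines mark a fold change of 2.5, which CTSB and CTSS exceeded.

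These opposite changes altered the make-up of the cathepsin reads more than their sum. The 10 members together took 1076 and 1090 RPM in WT and 1024 and 911 RPM in R. The 8 cysteine members together had 704 and 699 RPM in WT against 469 and 435 RPM in R, a ratio of 0.644 between the means. CTSB contributed 27.6% and 26.7% of the summed RPM in WT and 12.6% and 11.3% in R. CTSD contributed 29.2% and 30.3% in WT and 47.2% and 46.2% in R. These shares rest on amplicons of unknown efficiency, so they are to be read between libraries only.

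Within a library, the RPM of CTSB divided by that of CTSD was 0.946 and 0.882 in WT and 0.266 and 0.245 in R. The ratio was thus 3.58-fold lower in R on the geometric mean, a log2 difference of -1.84 where the SD between replicates was 0.0865 in R and 0.0709 in WT. The exact two-sided permutation test gave p = 0.333, which is the smallest value that 2 against 2 libraries can give. The test therefore cannot decide whether the ratio differs. The ratio restates the changes of CTSB and CTSD given above and is not separate support. A ratio within a library does not depend on its scaling.

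**Figure D3:**
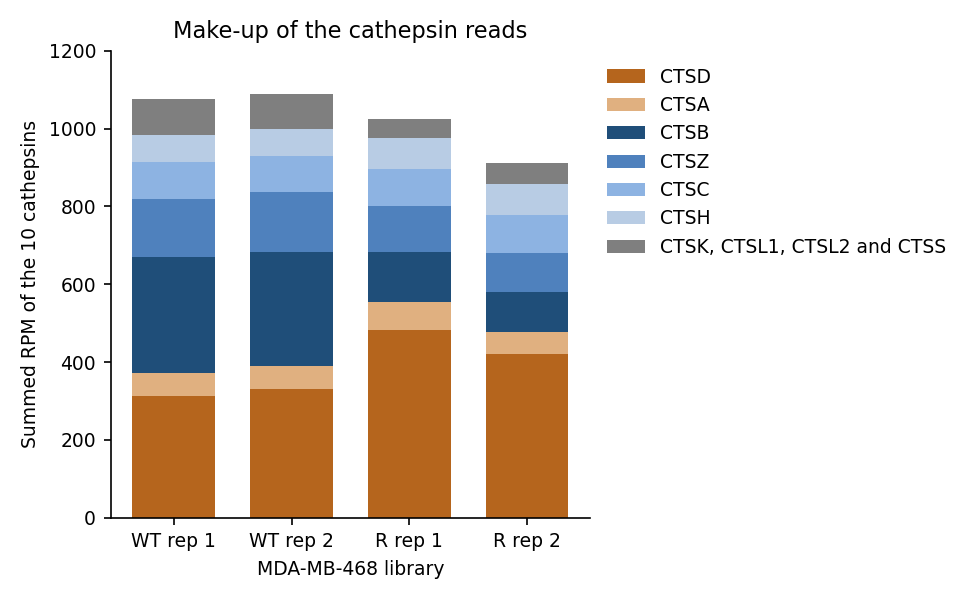
Summed RPM of the 10 cathepsin genes on the y axis in each MDA-MB-468 library on the x axis, with 1 colour per gene and CTSK, CTSL1, CTSL2 and CTSS joined in grey. The sums lie between 911 and 1090 RPM, and the CTSB part (dark blue) shrinks while the CTSD part (brown) grows in the R libraries.

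Of 6 cathepsin genes of the kit outside the members, CTSF and CTSO passed the filter, and neither passed the test. CTSF had 27.6 and 26.1 RPM in WT and 25.7 and 20.1 RPM in R (adjusted p = 0.387). CTSO had 3.96 and 6.16 RPM in WT and 3.99 and 3.14 RPM in R (adjusted p = 0.334). CTSE and CTSG were listed at 0 in all libraries, and CTSW and CTSL3 had at most 1.08 and 0.292 RPM.

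Genes of cystatins and of other protease inhibitors were read in the same libraries. Of 16 listed inhibitor genes, 4 passed the filter and all 4 were called lower, with a median log2 fold change of -1.47. CST6, SERPINB3 and SERPINB4 reached the filter only with their reads in WT, the group where they are high. A filter passed in this way favours genes that are lower in R, although it does not by itself force a call. The count and median are therefore a description, and CSTB was the one inhibitor that also reached the filter in R. CSTB encodes cystatin B, the cytosolic inhibitor. It had 384 and 364 RPM in WT and 270 and 220 RPM in R (log2 fold change -0.615, SE 0.121, adjusted p = 0.0149), and the call was lost without WT replicate 1 (adjusted p = 0.292) and without WT replicate 2 (adjusted p = 0.227). CST6 encodes cystatin M, a secreted inhibitor of cathepsin L, cathepsin V and legumain. It had 15.9 RPM in each WT library and 1.39 ± 0.152 RPM (SD, n = 2) in R, from 109, 127, 9 and 11 reads, which is 11.5-fold lower in RPM.

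SERPINB3 and SERPINB4, paralogous serpins whose reads may be hard to tell apart, had 25 and 27 reads in WT and 0 in R. Against a floor of 3 reads per library they were at least 4.06-fold and 4.37-fold lower. The call of SERPINB3 was lost without R replicate 1 (adjusted p = 0.0550) or R replicate 2 (adjusted p = 0.0572). CST3, the gene of the secreted cystatin C, was listed at 0 in WT and had 0.141 and 1.64 RPM in R. CSTA had at most 0.404 RPM.

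Most other genes of the lysosomal pathway did not pass the test, as held for all tested genes, of which 16.0% were called either way. Of 6 tested other peptidases of the lysosome, none passed, and their median log2 fold change was 0.23. Without R replicate 1, the carboxypeptidase genes SCPEP1 (0.485, adjusted p = 0.0334) and CPVL (0.795, adjusted p = 0.0470) were called higher. LGMN, the gene of legumain, which matures several cathepsins, had 53.6 and 53.2 RPM in WT and 64.8 and 52.8 RPM in R (adjusted p = 0.567). Of 30 tested glycosidases, sulfatases, lipases and their activators, 2 were lower and 1 was higher, with a median of 0.085. The higher gene was PPT1, a thioesterase that removes fatty acids from proteins, at 500.5 and 529 RPM in WT and 786 and 775 RPM in R (log2 fold change 0.60, adjusted p = 0.00598). The lower genes were IDS, a sulfatase of heparan and dermatan sulfate, which changed by -1.09 on the log2 scale (adjusted p = 7.97e-04), and GM2A, the activator of ganglioside breakdown, which changed by -0.50 (adjusted p = 0.0453). The calls of PPT1 and GM2A were lost without WT replicate 1 (adjusted p = 0.240 and 0.354) and without WT replicate 2 (0.183 and 0.452), that of IDS without WT replicate 2 (0.0618), and that of GM2A also without R replicate 2 (0.0681) and with the replicate block (0.0689).

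The genes that act with single members gave no call. NEU1 and GLB1, which are held in a complex by the CTSA product, had log2 fold changes of 0.215 (adjusted p = 0.274) and 0.15 (adjusted p = 0.498). PSAP, the prosaposin gene, had 656 and 621 RPM in WT and 625 and 621 RPM in R (log2 fold change -0.035, adjusted p = 0.837).

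Of 13 genes that route cathepsins to the lysosome, 1 was lower and 1 was higher, with a median log2 fold change of 0.06. The mannose 6-phosphate receptor gene M6PR had 69.0 and 70.0 RPM in WT and 72.5 and 70.5 RPM in R and did not pass. SORL1, a sorting receptor gene, was higher by 0.635 on the log2 scale (adjusted p = 0.0253), and VPS29, a retromer subunit gene, was lower with -0.55 (adjusted p = 0.0344). With 1 library left out, SORL1 lost its call in each of the 4 cases (adjusted p = 0.0681 to 0.383), and VPS29 lost it without R replicate 1 (0.0604), WT replicate 1 (0.422) or WT replicate 2 (0.311) and also with the replicate block (0.0555). Of 9 lysosomal membrane genes, LAMP2, which encodes a major membrane glycoprotein, was lower, from 369 and 349 RPM to 201 and 219 RPM (-0.77 on the log2 scale, adjusted p = 0.00298), while the other 8 did not pass. Without WT replicate 1 or WT replicate 2 the adjusted p of LAMP2 was 0.150 or 0.116.

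Among 4 tested transcription regulators of lysosomal genes, TFE3 was lower and the median log2 fold change was -0.60. TFE3, which binds the E-box core named above, had 28.2 and 28.7 RPM in WT and 12.8 and 9.56 RPM in R (log2 fold change -1.29, SE 0.179, adjusted p = 0.00419). TFEB had 21.0 and 16.4 RPM in WT and 11.3 and 12.2 RPM in R and did not pass (log2 fold change -0.62, adjusted p = 0.0575). Without WT replicate 1 or WT replicate 2 the adjusted p of TFE3 was 0.0835 or 0.0872. TFE3, LAMP2, IDS and the galactosidase gene GLA, which did not pass (log2 fold change -0.35, adjusted p = 0.112), lie on chromosome X, where 138 of 379 tested genes (36.4%) were called lower and the median log2 fold change was -0.45. The part of the chromosome in their values was not tested. No cathepsin of the list lies on chromosome X.

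**Figure D4:**
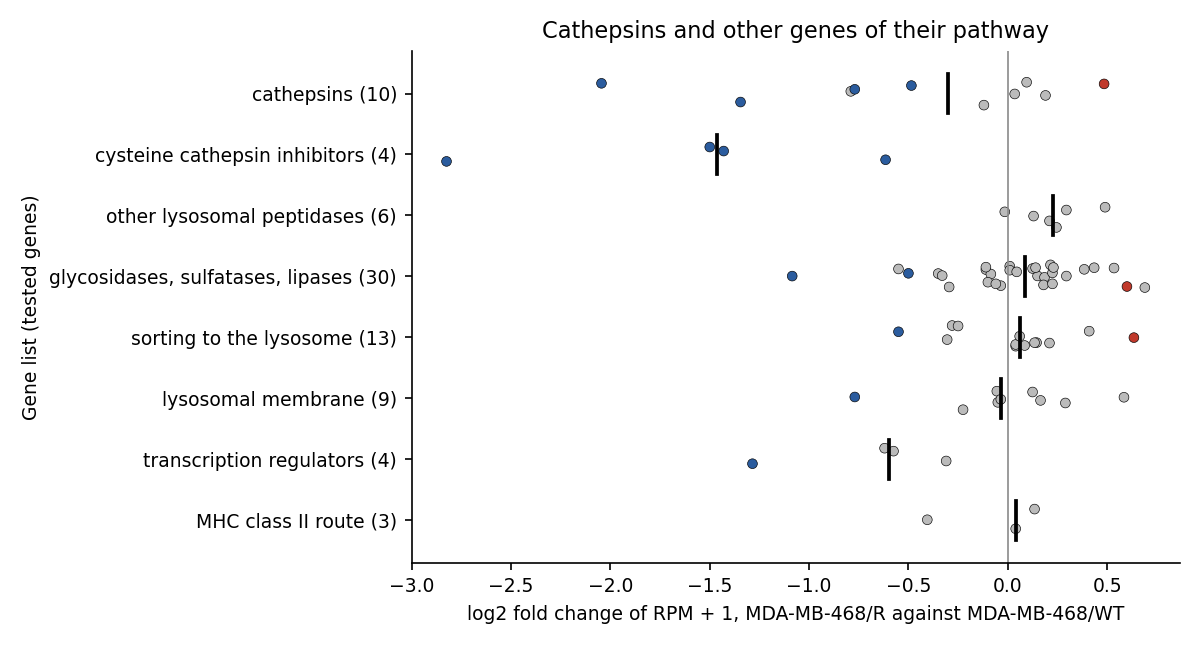
Log2 fold change of RPM + 1 on the x axis, R against WT, for the tested genes of 8 lists on the y axis, with the number tested in brackets. Each point is a gene, blue for lower, red for higher and grey for not passed, and each black bar is a median. The inhibitor median of -1.47 rests on 4 genes, of which CST6, SERPINB3 and SERPINB4 reached the filter only with their reads in WT. The other lysosomal peptidases had a median of 0.23.

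The genes that lie next to the members on the chromosome were compared with them, using the gene order of RefSeq for 11829 tested genes and the 5 nearest tested genes on each side. The neighbours of CTSB had a median log2 fold change of -0.24, and 1 of 10 was called lower, while CTSB itself, at -1.35, lay below all of them. CTSS and CTSK are direct neighbours of each other, so their windows share genes. The 10 neighbours of CTSS had a median of -0.22 and 2 were called lower, and CTSS lay below all of them. On the other side of CTSS, HORMAD1, a gene of meiotic chromosomes, was higher (log2 fold change 1.01, adjusted p = 0.0139), and beyond CTSK, ARNT, a partner of hypoxia-inducible factors, was lower (-0.49, adjusted p = 0.0342). ADAMTSL4, which encodes a protein of the extracellular matrix and lies at the edge of the CTSS window, was lower as well (-0.98, adjusted p = 0.0301). The part of the surrounding stretch in the value of CTSS was not tested. HORMAD1, ARNT, ADAMTSL4 and the neighbours named next were singled out after their values were seen.

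CTSL2 differed from these members, as 5 of its 10 neighbours were called lower, against 10.6% of all tested genes, and their median log2 fold change was -0.58, close to the -0.77 of CTSL2. The lower neighbours were ZNF367, HABP4, AAED1, ZNF510 and TDRD7, with log2 fold changes of -0.725, -0.985, -0.80, -0.65 and -0.85. The neighbours of CTSL1 had a median of -0.38, with 2 called lower and 1 higher. Those of CTSC had a median of -0.09, with 2 called lower and 3 higher, while CTSC itself was at 0.035. The window of CTSK, which holds CTSS, had 2 called lower and 1 higher. CTSH had 2 neighbours called higher, and CTSA had none called. The neighbours of CTSZ had a median of -0.05 and none was called. Of the 10 neighbours of CTSD, 1 was called higher and 2 were called lower, and their median was -0.105. The higher gene was IFITM10, an interferon-induced transmembrane protein family gene right next to CTSD (log2 fold change 0.475, adjusted p = 0.0466). The lower genes were KCNQ1 (-2.05, adjusted p = 0.00460) and KRTAP5-1 (-0.93, adjusted p = 0.0402). The part of the surrounding stretch in the value of CTSL2 was not tested.

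**Figure D5:**
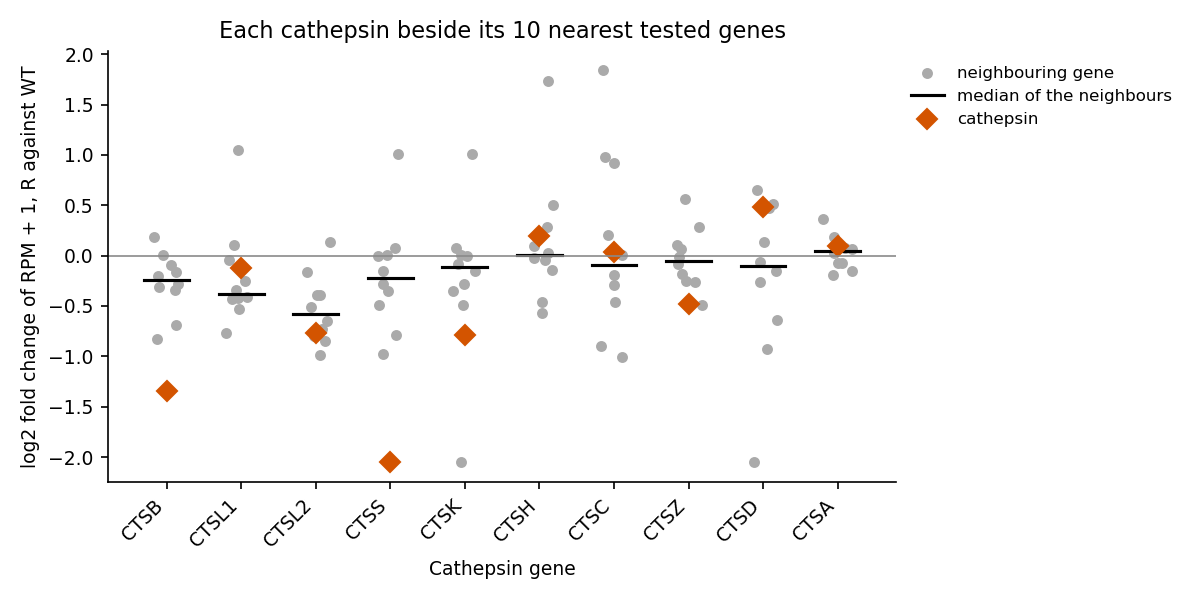
Log2 fold change of RPM + 1 on the y axis, R against WT, for each cathepsin gene on the x axis (orange diamond) and its 10 nearest tested genes (grey points, black line for their median). CTSB and CTSS lie below all of their neighbours, whereas CTSL2 lies among neighbours with a median of -0.58.

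Cathepsins are abundant in macrophages, osteoclasts and fibroblasts, so markers of these cells were read in the same libraries. Of 8 leukocyte, macrophage and osteoclast markers, 4 passed the filter and 1 was called lower. Their summed level was 116 and 118 RPM in WT and 93.2 and 89.6 RPM in R, most of it from CD14 and CD68. PTPRC and CD163 were listed at 0 in all libraries, whereas CSF1R and ACP5 of the same list passed the filter. CSF1R had 4.98 and 5.02 RPM in WT and 2.43 and 3.41 RPM in R (log2 fold change -0.625). ACP5 had 1.03 and 2.76 RPM in WT and 2.71 and 2.73 RPM in R (log2 fold change 0.43). Neither CSF1R nor ACP5 passed the test. CD68, which encodes a lysosomal membrane protein, fell from 25.7 and 25.4 RPM to 15.7 and 12.5 RPM (log2 fold change -0.825, adjusted p = 0.0163). Its call was lost without WT replicate 1 or WT replicate 2 (adjusted p = 0.231 or 0.224). Of 7 fibroblast markers, COL1A1 alone passed the filter, and PDGFRB and DCN were listed at 0 in all libraries. The summed level of the fibroblast markers was 17.3 and 18.3 RPM in WT and 14.8 and 12.4 RPM in R.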

How the data were processed

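RNA abundance was compared between the resistant subline and its parental line, each with 2 libraries, made with the Ion AmpliSeq Transcriptome kit. Per the paper's methods, reads were aligned with the Torrent Mapping Alignment Program to the targeted transcripts, and DEGs were called with DEGSeq. Bowtie2, bedtools and edgeR are listed in the submitters' processing notes with no version, and the genome build is not given in the sources used here. The authors deposited log2 values of RPM plus 1, rounded to 2 decimals, whose back-transformed totals were 999854 to 1000057 per library. The size of 1 read was taken from the lowest values, after which each value at or under 20 reads was whole to within 0.1 read. The groups were those of the sample titles. Groups were compared on the log2 values by limma 3.58.1, run under R 4.3.3 (group means, variances moderated along a mean trend) on 12118 genes with at least 10 reads in at least 2 libraries, with 2 residual and 5.40 prior degrees of freedom and Benjamini-Hochberg adjustment over all of them. The script was tested on simulated data. The alternatives were RLE scaling, no filter, 4 RPM added in place of 1, limma-voom, the replicate block and leaving out each library. The genes named were all members, up to 4 called genes per list with the largest change, the other cathepsin genes, and NEU1, GLB1, PSAP, LGMN, CSTB, CST3, TFEB, TFE3, CD74 and IFI30, which act with members. Further genes (markers, M6PR, HLA-DRA, HLA-DMA, CIITA, CSTA, SCPEP1, CPVL, GLA and chromosomal neighbours) were named after their values were seen. The members and lists were chosen with earlier results of these data known. No protein sequences were used here.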

Additional observations from a re-analysis of the deposited data

How the results depend on the processing

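With 4 RPM added in place of 1, with RLE scaling, which moved the median of all genes by 0.0327, and with limma-voom, the same 5 members were called in the same direction. With no filter on low values, limma called 0 members lower and 0 higher (4 and 2 at an unadjusted p under 0.05), with adjusted p of 0.0629 for CTSS (log2 fold change -2.05), 0.0855 for CTSB (-1.35), 0.168 for CTSD (0.485), 0.193 for CTSZ (-0.485) and 0.210 for CTSL2 (-0.77), and 163 of all genes were lower and 112 higher. Of the other genes named as called, TFE3 (0.112), LAMP2 (0.0665), PPT1 (0.0670), GM2A (0.283), CSTB (0.186), SERPINB3 (0.0532), SORL1 (0.122), VPS29 (0.223), CD68 (0.142) and KRT5 (0.0624) then lost their calls too. That alternative adds the targets with few or no reads, and the cause was not tested. Replicate numbers did not pair the libraries by any label, and the deviations of same-numbered libraries correlated at 0.00868 across genes. With the replicate block, CTSZ no longer passed (log2 fold change -0.485, adjusted p = 0.0585), and the other 4 members kept their calls. With 1 library left out, the number of members called lower ranged from 2 to 3 and of those called higher from 0 to 1, with the low ends without WT replicate 1 and without WT replicate 2. Over all genes those called lower then ranged from 131 to 1312 and those called higher from 72 to 736. The log2 fold change ranged from -0.93 to -0.61 for CTSL2, from 0.385 to 0.585 for CTSD and from -0.605 to -0.365 for CTSZ. Leaving out a library leaves 1 group with 1 library, which is then assumed to vary like the other group. Depth limits CTSK most, with 29 to 70 reads per library.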
